A study of Caenorhabditis elegans with 9 samples.

Results

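The data describe 5 cassette exons of 4 *C. elegans* genes that work in cell polarity and intercellular signalling, *par-3*, *dsh-1*, *kin-1* and *sma-2*, among 786 cassette exons of 721 genes in the deposited tables. The exons are every row of these 4 genes, which were chosen with earlier results of these data known. Values labelled *smg-2* were used only where they differed from those labelled *smg-1* for the same exon. The libraries were made from poly(A) RNA of whole, synchronized L4 larvae, with 3 biological replicates each of wild-type (the N2 strain), *smg-1* (TR1331, given as a knockout in the labels) and *smg-2* (CB4043, given as a knockout), both mutants being labelled with the N2 strain. Each mutant is a single strain, and an exon's value is an average over all tissues of the animal. All 4 genes were followed in wild-type and *smg-1*. *smg-2* values of their own existed for 3 exons, and the comparisons of both mutants share the same wild-type libraries.

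Nonsense-mediated mRNA decay (NMD) removes transcripts in which the ribosome meets a stop codon too early. The kinase SMG-1 phosphorylates the helicase SMG-2, and loss of either protein stabilises such transcripts, so that an isoform scarce in wild-type animals can become visible. A cassette exon feeds a transcript to NMD when including it, or leaving it out, brings a premature stop codon into frame. Exons whose length is a multiple of 3 nt (triplet exons) keep the reading frame, unless they carry a stop codon themselves. The same alternatives can instead give proteins with different ends.

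PSI, the percentage of junction reads of an exon that did not skip it, was computed for each library from the deposited usage of the skipping junction. The counts of skipping reads carried the opposite genotype label to the usage values. A count divided by the usage gave a whole number of reads in 26.8% of the cells of the *smg-1* table with the labels as deposited and in 100% with wild-type and mutant exchanged. The exchanged counts of wild-type were identical between the *smg-1* and *smg-2* tables in 498 of 498 exons with their own values in both, so the libraries shared by both tables are those whose usage is labelled wild-type, and the usage labels were kept. Junction reads over all exons summed to between 88652 and 319186 per library in the *smg-1* table and between 57400 and 196033 in the *smg-2* table. In 122 exons, among them the 173-nt exon of *par-3*, both tables gave the same values, under the label *smg-1* in one and *smg-2* in the other. Every one of the 122 carried the same junction identifiers in both tables, where 0 of the other 498 shared exons did, and the identifiers fell between those of their neighbours in 106 of 115 exons of the *smg-2* table and in 3 of 116 of the *smg-1* table. Skipping reads of the mutant replicates 1, 2 and 3 summed to 7539, 11928 and 4152 over the 122 exons, highest in replicate 2, as they were in *smg-2* over its own exons (40178, 63963 and 25853) and not in *smg-1* (160437, 98788 and 76675). These values resemble *smg-2*, but the labels conflict, so no mutant was assigned. Gene counts were not analysed here, so loss of *smg-1* or *smg-2* and the marker genes of tissues were not checked.

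The 5 exons differ in how they meet the reading frame, and the sequences that show this were read from the WBcel235 genome. The deposited positions fit that build, since both introns beside the exon began with GT and ended with AG in 98.7% of 785 exons, and 78.7% of the exons were annotated with both ends. The 129-nt exon of *sma-2* (chrIII:8754856-8754984, plus strand) is printed because its length preserves the frame while its sequence does not. The first capitals mark the stop codon in frame with the upstream exons, and the second mark the annotated start codon of a short *sma-2* isoform whose first exon lies within these bases. The 147-nt and 173-nt exons of *par-3* (chrIII:5672221-5672367 and chrIII:5674017-5674189, plus strand) are printed without capitals, as neither holds a stop codon in the frame that runs into it. From the 1555-nt exon of *dsh-1* (chrII:5219156-5220710, minus strand) the stretch chrII:5220630-5220689 is printed, with the start codon annotated inside the exon in capitals.
sma-2 129-nt exon: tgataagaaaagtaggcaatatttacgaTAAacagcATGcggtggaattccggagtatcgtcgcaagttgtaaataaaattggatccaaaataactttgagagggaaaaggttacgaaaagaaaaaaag
par-3 147-nt exon: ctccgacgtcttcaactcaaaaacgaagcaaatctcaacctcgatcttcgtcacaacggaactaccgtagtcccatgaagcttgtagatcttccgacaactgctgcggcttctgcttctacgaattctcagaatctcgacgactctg
par-3 173-nt exon: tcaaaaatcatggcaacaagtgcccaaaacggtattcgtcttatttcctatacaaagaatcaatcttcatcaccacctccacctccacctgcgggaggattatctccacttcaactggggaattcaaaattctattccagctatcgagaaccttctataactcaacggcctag
dsh-1 start in the 1555-nt exon: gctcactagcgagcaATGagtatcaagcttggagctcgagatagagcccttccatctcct

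The splice sites of the *sma-2* and *par-3* exons are shown with the invariant intron bases in capitals, 30 bases around each acceptor and 22 around each donor. The acceptors of the *sma-2* 129-nt exon and the *par-3* 147-nt exon end in TTTCAG, the sequence found at the acceptor of 23.2% of the 785 exons, read on the transcribed strand. The acceptors of the other 3 exons end in TTACAG (*par-3* 173-nt), TTCTAG (*dsh-1*) and TTGTAG (*kin-1*).
sma-2 129-nt acceptor: aaaatgatgtaaaatttcAGtgataagaaa
sma-2 129-nt donor: agaaaaaaagGTtgaaatatta
par-3 147-nt acceptor: cttctctcctcccttttcAGctccgacgtc
par-3 147-nt donor: gacgactctgGTtggttttaag
par-3 173-nt acceptor: aatcaggtaaccagttacAGtcaaaaatca
par-3 173-nt donor: aacggcctagGTactactactg

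**Figure D1:**
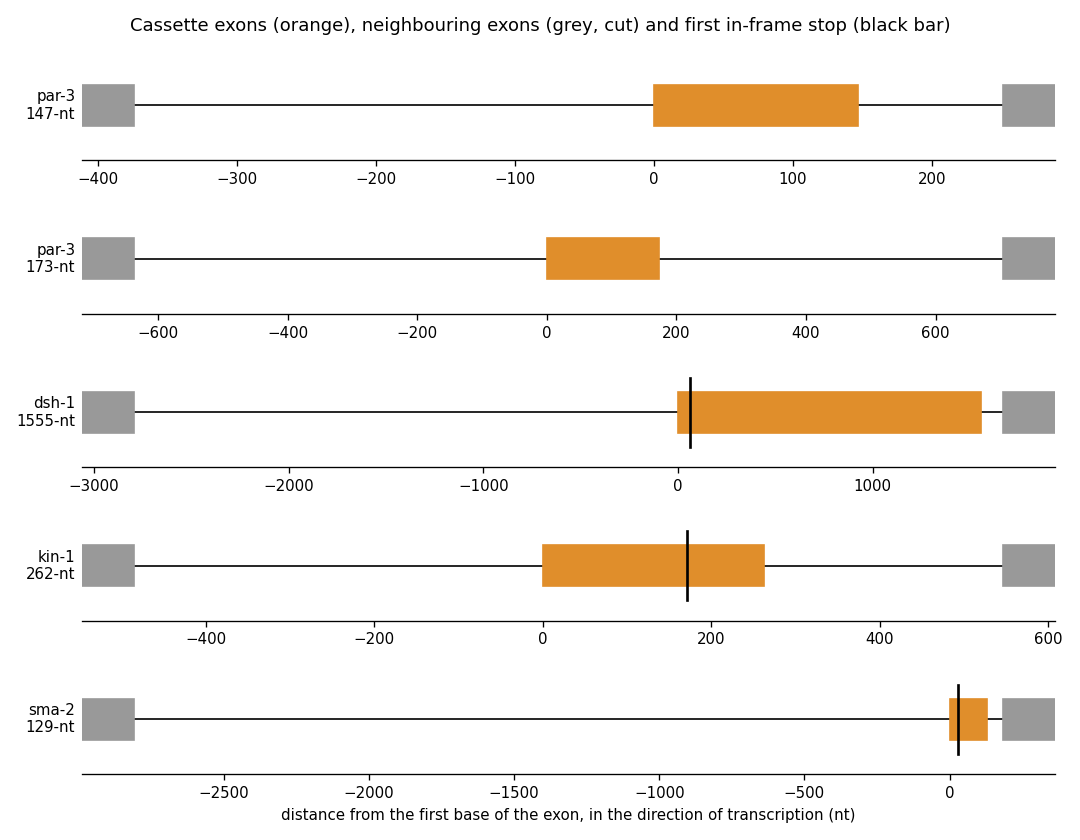
The 5 cassette exons (orange) to scale in the direction of transcription, as distance in nt from the first base of the exon, with the neighbouring exons (grey, cut) and the first stop codon met in frame within the exon (black bar). The *sma-2* exon sits 55 nt from the next exon and 2808 nt from the previous one, and the *sma-2*, *dsh-1* and *kin-1* exons each hold a stop codon in frame.

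*par-3* encodes a scaffold protein with PDZ domains that acts with PAR-6 and the atypical protein kinase PKC-3 at the anterior cortex of the zygote and later at the apical side of epithelial cells. Both of its exons are annotated as alternative. The 147-nt exon, between introns of 373 and 104 nt, is part of 12 of the 16 annotated transcripts and is skipped in the other 4, and in the longest coding transcript it adds 49 amino acids to a protein of 1484. The 147-nt exon was mostly included. PSI was 81.7%, 94.3% and 83.3% in wild-type replicates 1, 2 and 3, with 174 to 246 junction reads. In *smg-1* it was 84.0%, 83.0% and 76.7%, and in *smg-2* 91.0%, 80.8% and 83.6%. The 9 values overlapped between all genotypes. Wild-type replicate 2 lay highest, and its 95% Wilson interval (90.1% to 96.8%) did not meet those of replicates 1 (76.4% to 86.0%) and 3 (77.1% to 88.1%), so wild-type libraries differed by more than their counting error.

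For the *par-3* 147-nt exon, wild-type averaged a PSI of 86.4% ± 6.85 (SD, n = 3), *smg-1* 81.2% ± 3.95 and *smg-2* 85.1% ± 5.28. The change was -5.22 points in *smg-1* (95% interval -15.6 to 5.13; adjusted p = 0.515, limma). In *smg-2* it was -1.30 points (-12.9 to 10.3; adjusted p = 0.864), and neither passed the test. Wild-type replicate 2 set much of these values. Without it, the *smg-1* change was -1.29 points and the *smg-2* change 2.62 points. Inclusion was 3.92 points higher in *smg-2* than in *smg-1* (-5.31 to 13.1; adjusted p = 0.891), a difference of 0.973 points without *smg-2* replicate 1 and 6.08 points without *smg-2* replicate 2.

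The 173-nt exon of *par-3*, between introns of 636 and 531 nt, is not a triplet exon and changes the frame of everything after it. It is included in 4 of the 16 annotated transcripts and skipped in 12. No stop codon interrupts either frame for a long stretch: in the longest coding transcript 831 nt downstream of the exon are read in both frames. The proteins, of 1533 amino acids with the exon and 1379 without it, therefore have different C-terminal ends. With the exon, translation stops 163 nt after the last exon junction, and without it 126 nt before that junction. PSI was 18.7%, 13.1% and 36.7% in wild-type replicates 1, 2 and 3 and 24.3%, 11.9% and 17.5% in the mutant libraries, which are labelled *smg-1* in one table and *smg-2* in the other. Skipping was the major form in all 6 libraries. The 3 mutant values lay within the wild-type range or just under it.

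Wild-type replicate 3 was the highest library for the *par-3* 173-nt exon. It held 44 inclusion reads among 120 (Wilson interval 28.6% to 45.6%), against 32 among 171 (13.6% to 25.2%) and 16 among 122 (8.24% to 20.2%) in replicates 1 and 2. Wild-type averaged 22.8% ± 12.3 (SD, n = 3) and the mutant 17.9% ± 6.24. The change of -4.94 points (95% interval -22.0 to 12.1; adjusted p = 0.761) did not pass the test and turned to 1.98 points without wild-type replicate 3. The mutant libraries held 40 to 118 reads of this exon. A change of 10 points in either direction lies inside the interval, so changes of that size are not excluded here.

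*dsh-1* encodes a Dishevelled protein, which passes signals from Frizzled receptors into the cell in Wnt pathways. Its 1555-nt exon ranks 6 among the 785 exons by length, of which 7 are longer than 1000 nt. It is not a triplet exon. Of 8 annotated *dsh-1* transcripts, 1 includes it as an internal exon, 5 skip it and 2 use neither arrangement. Read from the upstream start codon, the exon brings a stop codon after 62 bases, 2790 nt before the last junction, and the protein would end after 248 amino acids in place of 702. The printed start codon follows 36 bases after the first base of the exon. From it, 1519 bases of the exon are coding in the transcript with the internal exon, and open a protein of 915 amino acids. In that isoform the exon thus carries its own N-terminal region. Another annotated transcript with this start codon has a longer coding sequence, of 2943 nt against 2745 nt.

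PSI of the *dsh-1* exon was 30.7%, 10.3% and 25.7% in wild-type replicates 1, 2 and 3 and 20.1%, 38.95% and 27.4% in *smg-1* replicates 1, 2 and 3. The ranges of both genotypes overlapped over most of their width. Wild-type replicate 2 was lowest, with 4 inclusion reads among 39 (Wilson interval 4.06% to 23.6%), and *smg-1* replicate 2 highest, with 37 among 95 (29.8% to 49.0%). Wild-type averaged 22.2% ± 10.6 (SD, n = 3) and *smg-1* 28.8% ± 9.49, a change of 6.62 points (95% interval -10.99 to 24.2; adjusted p = 0.642) that did not pass the test. Without wild-type replicate 2 it was 0.648 points, and without *smg-1* replicate 1 it was 10.97 points. The exon in *smg-2* was not analysed here. The sources used here do not give which inclusion junction was counted. Were it the one on the 3′ side, transcripts that start inside the exon would count as inclusion.

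*kin-1* encodes the catalytic subunit of the cAMP-dependent protein kinase (PKA), which phosphorylates many substrates when cAMP releases it from its regulatory subunit. The 262-nt exon (chrI:14950896-14951157, plus strand) lies near the end of the gene, between introns of 484 and 284 nt. Of 15 annotated transcripts, 2 include it, 6 skip it and 7 do neither, among them transcripts that end within it. As for *dsh-1*, the inclusion junction that was counted is not given. Were it the one on the 5′ side, transcripts that end within the exon could count as inclusion. With the exon, the reading frame stops inside it, 88 nt before the last junction, and gives a protein of 404 amino acids. Without it, translation runs on for a protein of 388 amino acids that stops 126 nt after the last junction. In the annotation each form thus encodes a kinase with its own C-terminal end.

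The *kin-1* exon was the most deeply covered of the 5, with 279 to 1423 junction reads per library. PSI was 36.2%, 32.15% and 31.9% in wild-type replicates 1, 2 and 3, 27.2%, 30.4% and 28.8% in *smg-1*, and 27.2%, 30.25% and 31.9% in *smg-2*. All 9 values lay between 27.2% and 36.2%. The *smg-1* libraries all lay under the lowest wild-type library, a separation in this direction that 19.4% of the 764 exons with 6 values showed. The *smg-2* libraries overlapped wild-type at 31.9%.

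For the *kin-1* exon, wild-type averaged 33.4% ± 2.43 (SD, n = 3), *smg-1* 28.8% ± 1.61 and *smg-2* 29.8% ± 2.40. The change was -4.60 points in *smg-1* (95% interval -9.996 to 0.796; adjusted p = 0.579). In *smg-2* the change was -3.64 points (-11.03 to 3.74; adjusted p = 0.739), or -2.24 points without wild-type replicate 1. Neither change passed the test. The mutants differed by 0.957 points (-5.87 to 7.78; adjusted p = 0.964).

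**Figure D2:**
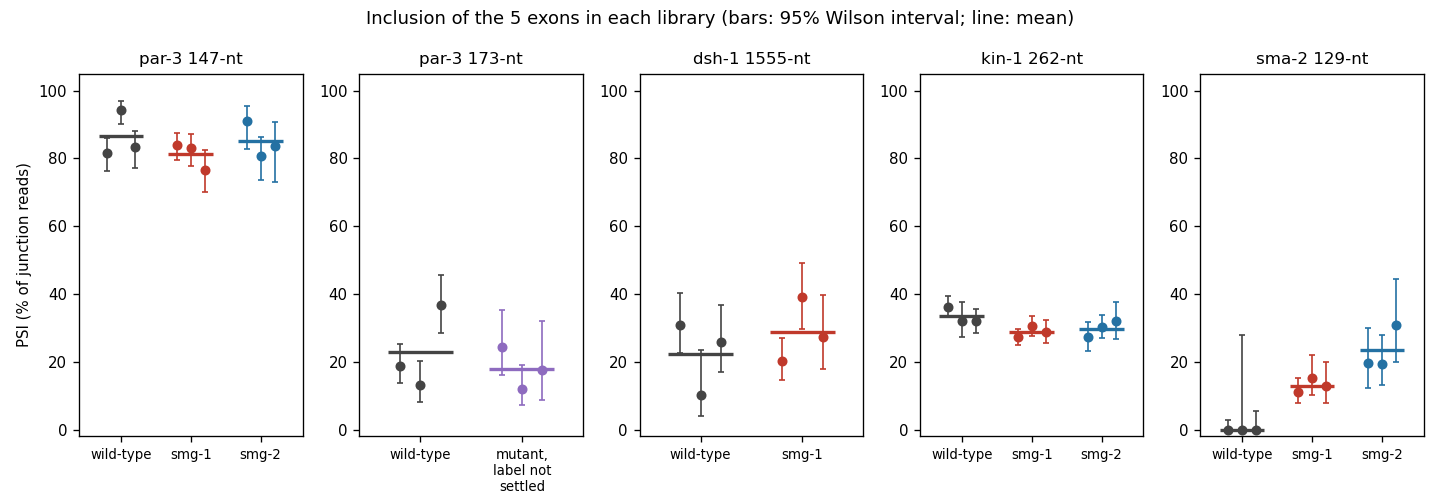
PSI in percent of junction reads for the 5 exons, one point per library with its 95% Wilson interval (counting error only) and the group mean as a line, in wild-type (grey), *smg-1* (red), *smg-2* (blue) and the mutant libraries whose label is not settled (purple). The *sma-2* exon is at 0% in the 3 wild-type libraries and at 10.95% to 30.8% in the 6 mutant libraries, while the other 4 exons overlap between groups except *kin-1* in *smg-1*.

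*sma-2* encodes a receptor-regulated Smad, which is phosphorylated by the receptors of the DBL-1 ligand and acts with the Smads SMA-3 and SMA-4 in the TGF-beta pathway that sets body size. The 129-nt exon rose in both mutants. None of the 3 annotated *sma-2* transcripts includes it between its neighbours, and 2 of them skip it. The remaining transcript begins at the start codon printed in capitals, at base 37 of the exon, in a first exon of 74 nt that ends 19 nt before the end of the 129-nt exon, and encodes 264 amino acids. Inclusion in a full-length transcript puts the printed TAA in frame at base 29. The protein would then end after 188 amino acids in place of 418, with the stop codon 756 nt before the last exon junction, whereas the stop codon of the skipped form lies 63 nt after it.

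In wild-type no read supported inclusion of the *sma-2* exon, with 0 of 137, 0 of 10 and 0 of 65 junction reads in replicates 1, 2 and 3. By counting error alone, 0 of the 212 pooled reads of the genotype allows a PSI of up to 1.42%, and replicate 2 alone allows 30%. In *smg-1*, 30 of 274, 22 of 144 and 15 of 118 reads included the exon, a PSI of 10.95%, 15.3% and 12.7%. In *smg-2*, 15 of 76, 21 of 108 and 16 of 52 reads included it, a PSI of 19.7%, 19.4% and 30.8%. Every mutant library was above every wild-type library. Such a separation was seen in 15.7% of 764 exons for *smg-1* and 13.1% of 495 for *smg-2*.

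From 0% in wild-type, PSI rose to 13.0% ± 2.18 (SD, n = 3) in *smg-1* (adjusted p = 0.000586) and 23.3% ± 6.46 (SD, n = 3) in *smg-2* (adjusted p = 0.000545). Both changes, of 12.98 and 23.3 points, passed the test. Over the pooled reads of each genotype, PSI was 12.5% and 22.03%, or 8.83-fold and 15.6-fold the 1.42% limit of the pooled wild-type reads. These ratios leave out the spread between libraries and the error of the mutant values, so they are no lower bound on the fold between genotypes. With inclusion weighted as 2 junctions, the *smg-1* change was 6.95 points and no longer over 10 points, and the *smg-2* change was 13.3 points. The wild-type library with 10 reads did not decide the calls, since without it the adjusted p was 0.00136 for *smg-1* and 0.00204 for *smg-2*. The deposited exons all have a mean PSI in the mutant between 5.03% and 94.997% in the *smg-1* table and between 5.08% and 94.8% in that of *smg-2*, so an exon at 0% in wild-type could appear in either only if it was higher in the mutant. The direction of the *sma-2* change, and a rise of at least about 5 points, were therefore fixed by its presence in the tables. The p-values are thus no test of whether the exon rose. Of 12 exons of the *smg-1* table with no inclusion read in any wild-type library, 12 were higher in the mutant, which their presence fixed in the same way.

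The 3 *smg-2* libraries included the *sma-2* exon more than the 3 *smg-1* libraries, without overlap, as did 9.05% of 497 exons. The difference was 10.3 points (95% interval 0.943 to 19.7), with an unadjusted p of 0.0157 from limma and an adjusted p of 0.517 over 498 exons, so it did not pass the test. Without *smg-2* replicate 3 it was 6.61 points. No exon of the whole comparison was called between the mutants (0% of 498, limma on logit PSI), with 19 exons past 10 points at an unadjusted p under 0.05 and 2 called by limma on PSI itself.

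**Figure D3:**
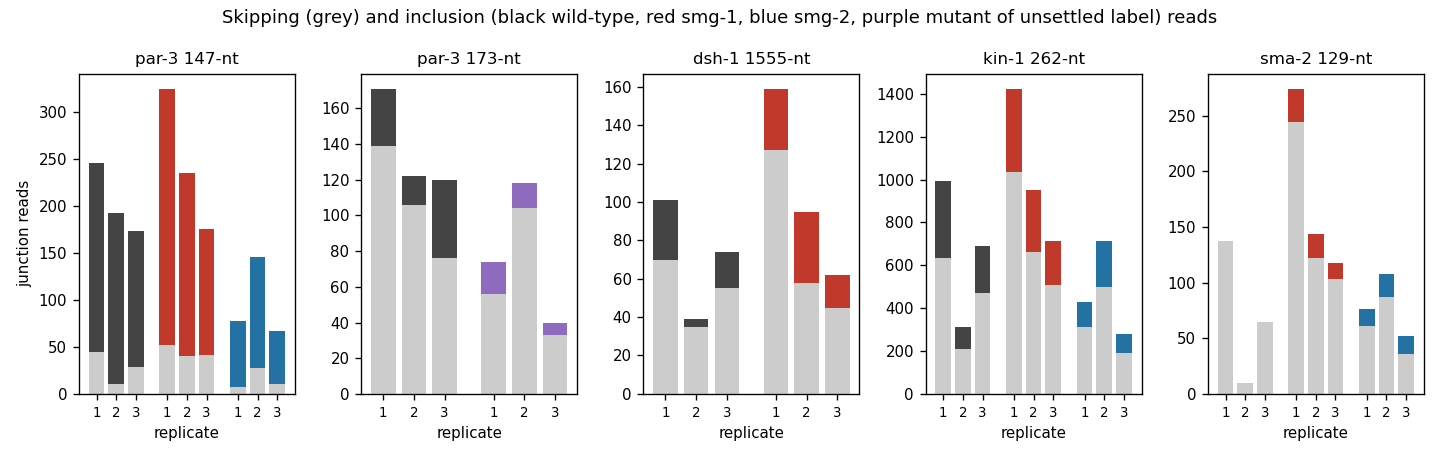
Junction reads per library for the 5 exons, as skipping reads (grey) with inclusion reads stacked on them (black for wild-type, red for *smg-1*, blue for *smg-2*, purple for the mutant of unsettled label), replicates 1 to 3 in each group. Scales differ between panels. The *sma-2* exon has 15 to 30 inclusion reads in each mutant library and 0 in each wild-type library.

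Set against all exons, 1 of the 5 exons was called higher in *smg-1*, where 6.27% of 782 exons were, and 0 were called lower (6.52% of all exons). Without the copied exons, 1 of 4 was called higher (6.35% of 661) and 0 lower (6.96%). In *smg-2*, 1 of 3 was called higher (6.83% of 498) and 0 lower (8.23%). At an unadjusted p under 0.05, which 30.2% of all exons passed in *smg-1* and 24.3% passed in *smg-2*, the *sma-2* exon was again the only one of the 5. The members were picked by gene name, with earlier results of these data known, and are few, so nothing is read from these shares. All exons together had a median change of -0.417 points in *smg-1*, against -0.130 in *smg-2*. The 4 exons that were not called changed by -5.22 to 6.62 points in the *smg-1* table, where the median absolute change of all exons was 5.28 points.

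**Figure D4:**
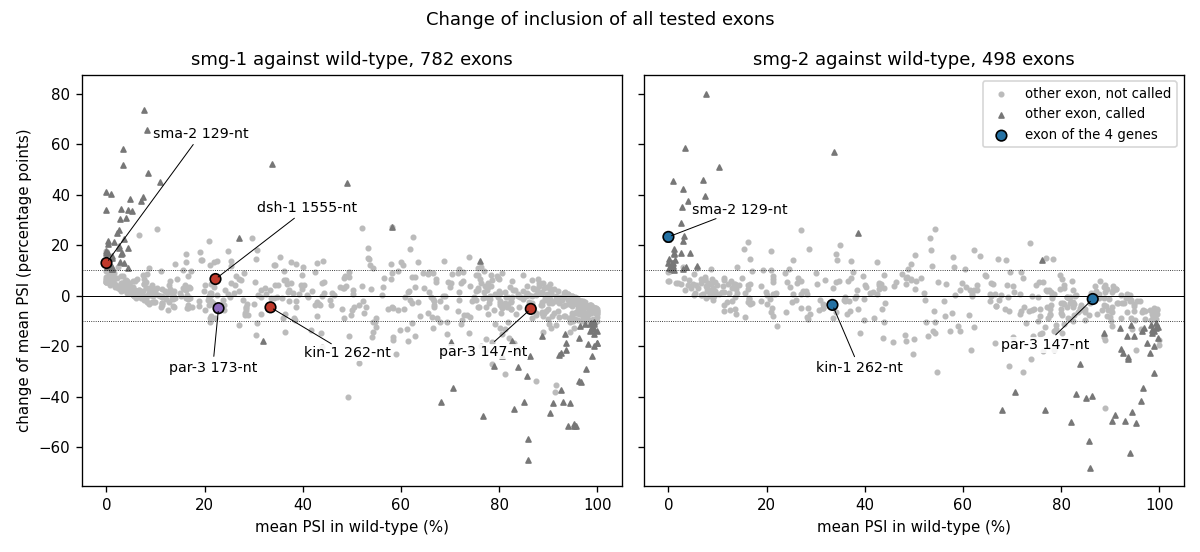
Change of mean PSI in percentage points (mutant minus wild-type) against mean wild-type PSI in percent, one point per tested exon, for *smg-1* (left, 782 exons) and *smg-2* (right, 498 exons). Triangles are called exons, dotted lines mark 10 points, and exons of the 4 genes are named, with the *par-3* 173-nt exon in purple because its mutant label is not settled. *sma-2* lies at 0% in wild-type and rises by 12.98 and 23.3 points, and the other named exons lie within 10 points.

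Few other genes of the same pathways had cassette exons in the tables. Of 35 listed polarity and junction genes, 7 had 9 exons in the *smg-1* table, 4 of them of unsettled mutant label, and 0 were called, with 1 at an unadjusted p under 0.05 (30.2% of all exons) and 0 called by limma on PSI itself. With *smg-2* values there were 5 exons of 5 of these genes, again with 0 called, 1 at an unadjusted p under 0.05 (24.3% of all exons) and 0 called by limma on PSI itself. The exon at an unadjusted p under 0.05 was the 97-nt exon of *num-1*, the Numb homolog. Its PSI went from 98.4% in wild-type to 92.8% in *smg-1*, or 88.9% in *smg-2*, by less than 10 points (limma, adjusted p = 0.0365 and 0.0164). No deposited exon had a mean PSI over 94.997% in *smg-1* or 94.8% in *smg-2*. An exon at 98.4% in wild-type could therefore appear only if it was lower in the mutant. Its presence fixed the direction, and these p-values are no test of whether the *num-1* exon fell. Over the 9 exons the median change was 1.497 points, and over the 5 exons it was -1.30 points. Of 38 Wnt genes, 2 had an exon each in the *smg-1* table and 0 were called, with 1 at an unadjusted p under 0.05 and 0 by limma on PSI itself. That exon was the 119-nt exon of *pop-1*, the TCF transcription factor. It was included at 98.7% in wild-type and 94.8% in *smg-1* (limma, adjusted p = 0.0301), also a change of less than 10 points. Its *smg-1* mean lay just under the highest of the deposited exons, 94.997%. Presence in the table thus fixed the direction and most of the size of this change, and the p-value is no test of it.

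*kin-1* was the only one of 24 cAMP and PKA genes with a cassette exon in the tables. Of 28 TGF-beta genes, 3 had an exon each, of which that of *sma-2* was called higher in both mutants and 2 were not called. The 63-nt exon of *daf-4*, the type II receptor shared by the DBL-1 and dauer pathways, had a PSI of 82.9% in wild-type, against 85.3% in *smg-1* with 82.8% in *smg-2*. The 102-nt exon of *daf-3*, the co-Smad of the dauer pathway, had a PSI of 52.2%, 50.3% and 50.6% in the same order. The 3 exons had a median change of 2.43 points in *smg-1*, against -0.05 points in *smg-2*.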

How the data were processed

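RNA-Seq libraries from 9 samples, 3 per genotype, were grouped by the genotype and title labels. Per the study's methods, the authors aligned reads with STAR and quantified splicing with JUM, each mutant against wild-type, requiring 5 junction reads per event. The annotation used for this is not given in the sources used here. The deposited usage is a fraction, the skipping junction's share of an exon's junction reads. The deposited read counts are those of the skipping junction. The deposited p-value, q-value and PSI change columns hold the authors' own comparison and were not used.

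PSI was 100% minus the usage in percent. Totals of junction reads were the count divided by the usage, after exchanging the genotype labels of the counts. The *smg-1* test held 782 exons, without 1 whose coordinates were inverted and 3 measured in under 2 libraries of a genotype. Unless stated otherwise, it and the shares and medians given for *smg-1* kept the copied exons, whose mutant is not settled. The *smg-2* test held 498, without the 122 copied ones. The logit of PSI, limited to 1-99%, was compared by limma 3.58.1 (lmFit, eBayes; R 4.3.3), with Benjamini-Hochberg adjustment over all exons. An exon was called where mean PSI differed by more than 10 points and adjusted p was under 0.05. The mutants were compared in 1 fit of the 3 genotypes. The 95% intervals of a change come from limma on PSI itself, and Wilson intervals and the limit from 3 reads cover counting error only. The p-values do not allow for the choice of genes. Scripts were tested on simulated data. For isoforms, the exon was added to or taken out of a WBcel235 coding transcript. This was the longest that includes or skips the exon between its neighbours and starts outside it. For *kin-1*, longer transcripts without either arrangement exist. Figures used Python 3.11.15 and matplotlib 3.10.9.

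The members and gene lists were chosen with earlier results of these data known. Every exon of the 4 genes was named, with exons of 4 gene lists named where called, while *num-1*, *pop-1*, *daf-4* and *daf-3* were named after their values were seen. Alternatives changed the thresholds, the limits and scale of PSI, weights, trend, replicate block, minimum of reads, weight of inclusion and the libraries. Those for the comparison of the mutants, and leaving out the copied exons, were chosen after seeing the data.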

Additional observations from a re-analysis of the deposited data

How the results depend on the processing

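The *sma-2* exon, whose direction no alternative could turn, lost its call in *smg-1* with inclusion weighted as 2 junctions (6.95 points) and with a change over 20 points required, and kept it in the other fits with 10 points required. In *smg-2* it kept its call. When 1 library was left out, its change ran from 11.8 to 13.995 points (*smg-1*) and from 19.6 to 25.3 points (*smg-2*). The other 4 exons were called under no alternative. Leaving out 1 library moved the *par-3* 147-nt exon in *smg-2* between -4.25 and 2.62 points (0.858 points without *smg-2* replicate 2), the *par-3* 173-nt exon between -9.80 and 1.98, the *dsh-1* exon between 0.648 and 10.97, and the difference of the mutants for *kin-1* between -0.107 and 2.26.

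The count of 100 called exons in *smg-1* was 158 at 5 points, 56 at 20 points, 64 at an adjusted p under 0.01, 88 without the 122 copied exons and 69 to 113 with 1 library left out. In *smg-2*, 75 became 41 at 20 points and 54 to 72 with 1 library left out. With inclusion weighted as 2 junctions, 31 rose and 77 fell in *smg-1* (49 and 51 in the test as described) and 18 rose and 47 fell in *smg-2* (34 and 41). Between the mutants, limma on PSI itself called 2 exons. Deviations of same-numbered wild-type and mutant libraries correlated at 0.030 to 0.088 (*smg-1*) and 0.032 to 0.204 (*smg-2*). Those of differently numbered libraries correlated at -0.102 to 0.058 (*smg-1*) and -0.306 to 0.082 (*smg-2*). These values do not settle whether the numbers pair the libraries, and the test did not pair them. With the replicate block, 80 and 63 exons were called and no call of the 5 exons changed. Junction reads fell to 10 for *sma-2* and 39 for *dsh-1* in wild-type replicate 2, and Wilson intervals of libraries of 1 genotype did not always meet for *par-3* and *dsh-1*.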
